A study of Mus musculus with 30 samples.

Results

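The 9 genes described here carry out steps by which cells make and release glucose, and the transport of glucose across membranes. Pck1, G6pc, Fbp1, Fbp2 and Pcx encode enzymes of gluconeogenesis, and Slc2a1, Slc2a2, Slc2a3 and Slc2a4 encode the glucose transporters GLUT1 to GLUT4. They were chosen by symbol, and all 9 were found among the 48709 genes of the deposited tables. RNA came from liver, kidney, quadriceps femoris muscle, brain and spleen of adult C57BL/6 mice, either wild type (WT) or haploinsufficient for Ctcf (Ctcf+/-, called heterozygous here). Each tissue had 3 libraries per genotype, and the series held 30 in all. CTCF is a DNA-binding protein that takes part in chromatin looping. How the Ctcf allele was made, and the sex, feeding state and time of sampling of the mice, are not given in the sources used here.

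In gluconeogenesis, pyruvate carboxylase (Pcx) and phosphoenolpyruvate carboxykinase (Pck1) carry pyruvate past the irreversible end of glycolysis, fructose-1,6-bisphosphatase (Fbp1, Fbp2) bypasses phosphofructokinase, and glucose-6-phosphatase (G6pc) frees the sugar. Liver and renal cortex run the whole route and release glucose to the blood. Brain, muscle and lymphoid tissue take glucose up through transporters that differ in affinity and in their response to insulin, and muscle can make glycogen from lactate but cannot release free glucose.

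On GRCm38, Pck1 (ENSMUSG00000027513) lies on chromosome 2 at 173153048 to 173159273 on the plus strand, and G6pc (ENSMUSG00000078650) on chromosome 11 at 101367561 to 101377903 on the plus strand. Fbp1 (ENSMUSG00000069805) and Fbp2 (ENSMUSG00000021456) are neighbours on the minus strand of chromosome 13, at 62864753 to 62888282 and 62836884 to 62858400. Pcx (ENSMUSG00000024892) lies on chromosome 19 at 4510472 to 4621752, plus strand. Slc2a1 (ENSMUSG00000028645) lies on chromosome 4 at 119108711 to 119137983, plus strand, and Slc2a2 (ENSMUSG00000027690) on chromosome 3 at 28697903 to 28731359, plus strand. Slc2a3 (ENSMUSG00000003153) lies on chromosome 6 at 122727809 to 122801640, minus strand, and Slc2a4 (ENSMUSG00000018566) on chromosome 11 at 69942539 to 69948188, minus strand. Counts are summed over exons without regard to strand. Slc2a1 shares 105 exonic bases with Gm12868, from which fragments were not counted, and the other 8 genes share none with another gene.

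The RefSeq promoter table (GRCm38.p6) held a window for 7 of the 9 genes, without Slc2a3 and Slc2a4. The bases that precede both the RefSeq start and the start of the counted gene model are printed for Pck1 and G6pc, whose transcripts were highest in liver and kidney, and for the broadly expressed Slc2a1, so that these 2 kinds of promoter can be set side by side. Capitals mark matches to 3 motifs searched on both strands. The cyclic AMP response element was written TGACGTCA or TTACGTCA. The letters searched for the TATA-type box were TATAAA. Those of the GC-rich box were GGGCGG, and none of the matches overlapped.
Pck1, chr2:173152823-173153047, plus strand: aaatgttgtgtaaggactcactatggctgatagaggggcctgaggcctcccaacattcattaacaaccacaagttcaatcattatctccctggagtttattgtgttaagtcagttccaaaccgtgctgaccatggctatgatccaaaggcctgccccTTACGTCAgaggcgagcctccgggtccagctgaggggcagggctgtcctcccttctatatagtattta
G6pc, chr11:101367466-101367560, plus strand: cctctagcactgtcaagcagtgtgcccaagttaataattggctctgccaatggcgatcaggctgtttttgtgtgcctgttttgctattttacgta
Slc2a1, chr4:119108495-119108710, plus strand: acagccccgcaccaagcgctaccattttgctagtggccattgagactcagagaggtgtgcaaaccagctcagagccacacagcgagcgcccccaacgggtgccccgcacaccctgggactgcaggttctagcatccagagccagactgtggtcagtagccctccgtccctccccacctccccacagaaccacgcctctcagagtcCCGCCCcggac
In the full 250 bases before the RefSeq start, Pck1 held the cyclic AMP response element 93 bases before the start, and 1.98% of all 32851 windows of that length held one. G6pc had a TATA box at 29 bases, a motif in 12.4% of windows, which lies after its printed stretch, so that stretch has no capitals. Slc2a1 had GC boxes at 45 and 20 bases, a motif in 32.7% of windows and also in those of Pck1, Fbp1 and Pcx, and Slc2a2 and Fbp2 matched none of the 3 in their windows. These matches describe letters only, since no binding was measured.

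The libraries held between 49819907 and 131645999 counts each. Levels are FPKM, which are counts divided by exonic length and by library size after TMM scaling over all 30 libraries, which allows comparison between genes, and a count of 3 or fewer is taken as the floor. The tissues carried their defining markers: summed over 5 genes each, hepatocyte markers were at least 206177 CPM (counts scaled by library size) in liver, proximal tubule markers at least 13829 CPM in kidney, muscle fibre markers at least 170148 CPM in muscle, neuron markers at least 3197 CPM in brain and B and T cell markers at least 1770 CPM in spleen. Ctcf, the targeted gene, was lower in every heterozygous library than in every WT library of its tissue on this scale. It fell by 0.63 on the log2 scale over all tissues (SE 0.06, edgeR adjusted p 4.00e-07). That fit counts libraries as separate, so its p is too small if the same mouse gave several tissues and the mouse matters. In single tissues the log2 difference was -0.57 to -0.70, and it passed adjustment over all genes in brain alone (adjusted p 0.0259). Some libraries also carried traces of other organs or cell types, and those values stand beside the results they touch.

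In WT mice the gluconeogenic enzymes Pck1, G6pc and Fbp1 and the transporter Slc2a2 were liver and kidney genes, Slc2a3 was a brain and spleen gene, Slc2a4 and Fbp2 were mainly muscle genes, and Slc2a1 was present everywhere. Liver and kidney together were tested against the mean of brain, muscle and spleen over the 15 WT libraries. Of the 9 genes, 6 were higher in the output tissues, 2 were lower and 1 was not called, at an adjusted p under 0.05 in edgeR's quasi-likelihood test. Over all 22933 genes tested, 31.7% were called higher and 30.7% lower, so calls of this kind were common. The median log2 difference was 3.22 over the 9 genes and -0.13 over all genes. In bulk tissue, fewer cells of a type and less RNA per cell cannot be told apart. Nothing in the labels ties replicate numbers to animals across tissues, and p-values measure the spread between these samples.

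**Figure D1:**
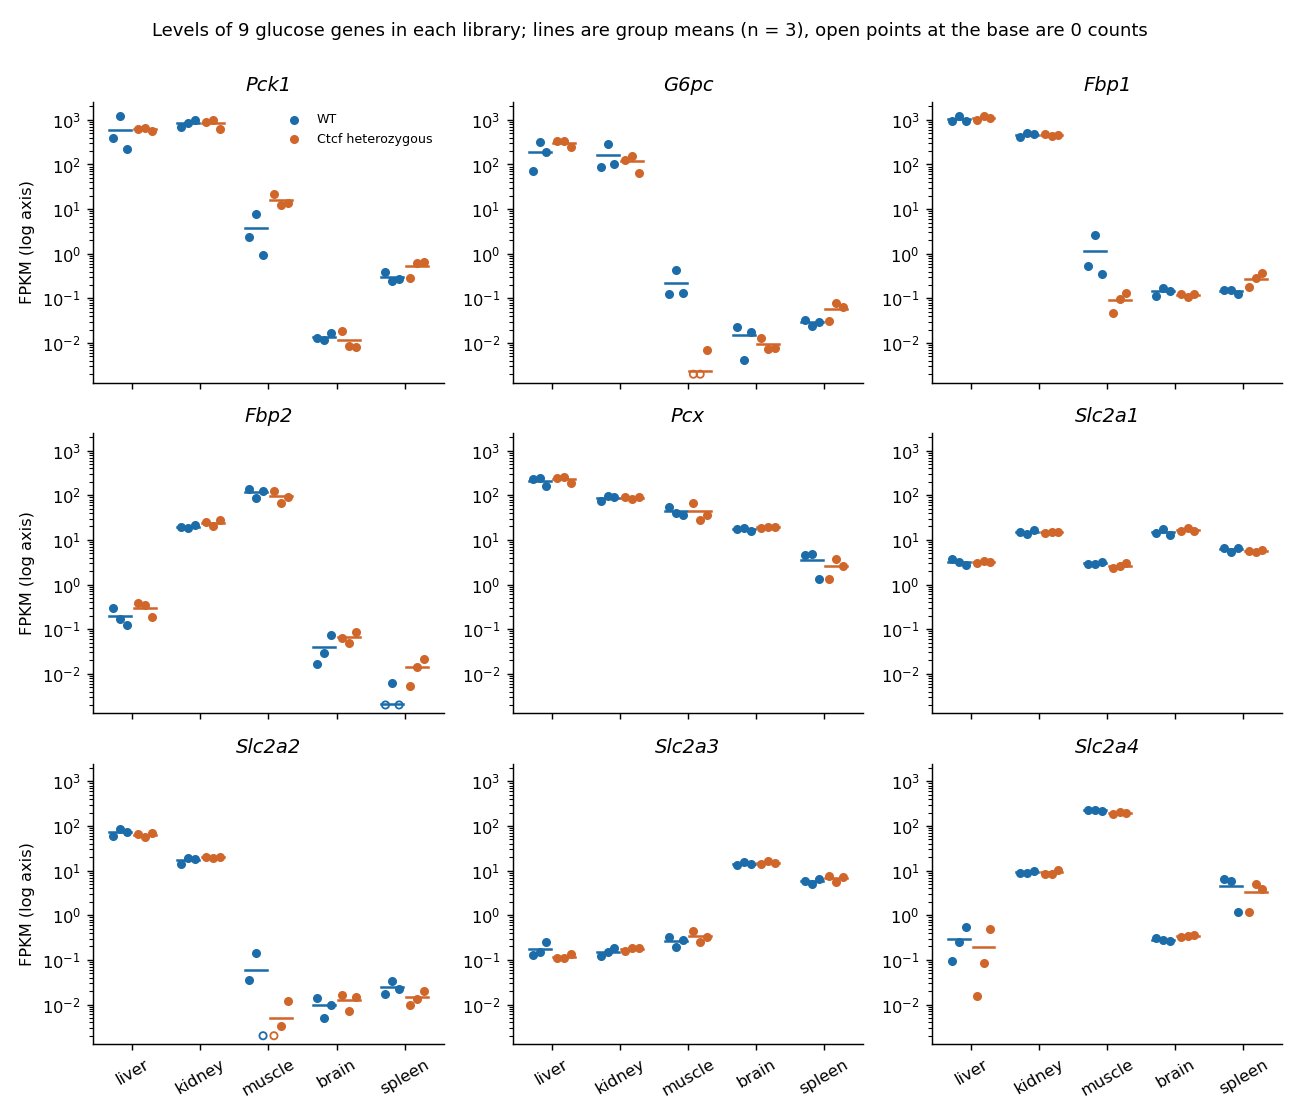
FPKM (log axis) of the 9 genes in every library, WT in blue and Ctcf heterozygous in orange, with lines at group means (n = 3) and open points at the base for libraries with 0 counts. Pck1, G6pc, Fbp1 and Slc2a2 are high in liver and kidney only, Slc2a3 in brain and spleen, and Slc2a4 peaks in muscle.

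Pck1 makes phosphoenolpyruvate from oxaloacetate in the cytosol and is set mainly by transcription. In WT kidney it stood at 704, 829 and 968 FPKM, and in WT liver at 394, 1192 and 227 FPKM. The liver libraries spread over a wider range and overlapped those of kidney, and liver did not differ from kidney by test (log2 difference -0.50, SE 0.62, edgeR adjusted p 0.527). With libraries scaled by total counts in place of TMM, liver was called lower than kidney (log2 difference -1.56, edgeR adjusted p 0.0329). Muscle followed at 3.76 ± 3.70 FPKM (SD, n = 3), then spleen at 0.299 ± 0.0729 FPKM and brain at 0.0137 ± 0.00252 FPKM, the last from 4 counts per library. None of these 3 neighbours overlapped. The output tissues were higher by 11.40 log2 units (SE 0.58, adjusted p 2.06e-10). Pck1 made up 99.2% ± 0.423 of the summed FPKM of Pck1 and its mitochondrial counterpart Pck2 in liver and 99.2% ± 0.0976 in kidney, but 0.261% ± 0.0614 in brain and 1.38% ± 0.522 in spleen (SD, n = 3).

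G6pc encodes the catalytic subunit that releases free glucose at the endoplasmic reticulum. It stood at 70.2, 322 and 191 FPKM in WT liver and at 87.6, 294 and 105 FPKM in WT kidney, and these 2 tissues overlapped fully (log2 difference 0.23, SE 0.53, edgeR adjusted p 0.743). Muscle was at 0.122, 0.422 and 0.129 FPKM, spleen at 0.0293 ± 0.00458 FPKM and brain at 0.0150 ± 0.00987 FPKM. The brain libraries held 1 to 5 counts, at or near the floor. Output tissues exceeded uptake tissues by 11.83 log2 units (SE 0.52, adjusted p 4.06e-11).

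Fbp1, the liver form of fructose-1,6-bisphosphatase, was the most abundant of the 9 transcripts in liver. Its WT levels were 940, 1229 and 937 FPKM in liver and 409, 509 and 474 FPKM in kidney, 1.17 ± 1.27 FPKM in muscle and 0.145 ± 0.0305 and 0.143 ± 0.0165 FPKM in brain and spleen (SD, n = 3). Liver and kidney did not overlap, while brain and spleen did. The log2 difference between liver and kidney, 1.14 (SE 0.48), missed the threshold with an adjusted p of 0.0599. It passed in 6 of 20 alternatives. It did so without the WT muscle library of replicate 1, 2 or 3, with adjusted p of 0.0435, 1.69e-04 and 0.0215. The others were DESeq2 (0.0435), the replicate number as a block (0.0321) and the heterozygous libraries (2.37e-04). Over the 20 alternatives the log2 difference ran from 0.14 to 1.28 and the adjusted p from 1.69e-04 to 0.820. Output tissues were above uptake tissues by 11.15 (SE 0.43, adjusted p 1.06e-11).

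Fbp2, the muscle form, ran the other way. It was highest in WT muscle at 136, 86.4 and 125 FPKM, stood at 19.1, 18.03 and 21.8 FPKM in kidney, at 0.199 ± 0.0923 FPKM in liver and at 0.0403 ± 0.0301 FPKM in brain, and spleen held 1 count over its 3 WT libraries. No neighbouring tissues overlapped. The ratio of muscle to spleen rested on that single count, 54480 with a 95% exact interval of 9777 to 2152000 for counting error only. Fbp2 was called higher in output than in uptake tissues (2.96, SE 0.33, adjusted p 1.70e-06) in a test that averages log levels over tissues, with brain and spleen near the floor. Liver was 98.65-fold below kidney (log2 -6.62, SE 0.32, adjusted p 4.75e-10). Fbp1 gave 99.98% ± 0.0108 of the summed Fbp1 and Fbp2 FPKM in liver, 95.9% ± 0.583 in kidney and 1.21% ± 1.52 in muscle.

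Pcx, the mitochondrial enzyme that makes oxaloacetate from pyruvate, also refills the citric acid cycle, and it was present in all 5 tissues. Its WT level fell in steps from liver (212 ± 45.2 FPKM) through kidney (88.4 ± 10.95), muscle (44.1 ± 10.003) and brain (17.4 ± 1.29) to spleen (3.61 ± 1.98), and no neighbouring tissues overlapped. Output tissues were 9.33-fold higher (log2 3.22, SE 0.23, adjusted p 9.19e-09). The liver level exceeded that of kidney by 1.23 on the log2 scale (SE 0.35, adjusted p 0.00773), a difference that shrank to 0.23 (adjusted p 0.537) when libraries were scaled by total counts in place of TMM.

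Slc2a2, the low-affinity transporter through which glucose leaves hepatocytes and tubule cells, was the only transporter of the 4 with the pattern of the gluconeogenic enzymes. It stood at 61.2, 87.1 and 74.9 FPKM in WT liver and at 14.0, 19.002 and 18.1 FPKM in WT kidney, without overlap (log2 difference 2.10, SE 0.47, edgeR adjusted p 0.00152). The 3 uptake tissues were at 0.0591 ± 0.0740 FPKM in muscle, 0.0246 ± 0.00814 FPKM in spleen and 0.00953 ± 0.00429 FPKM in brain, with 0 to 53 counts per library. Output exceeded uptake tissues by 10.45 log2 units (SE 0.42, adjusted p 1.61e-11).

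Slc2a1, the basal transporter of most cells and of the blood-brain barrier, did not separate output from uptake tissues. It was at 15.4, 13.9 and 16.7 FPKM in WT kidney and at 13.9, 17.5 and 12.9 FPKM in WT brain, followed by spleen (6.16 ± 0.673), liver (3.22 ± 0.562) and muscle (3.02 ± 0.213). Kidney and brain overlapped, as did liver and muscle, while spleen lay apart from both pairs. The contrast of output against uptake was 0.05 (SE 0.10, adjusted p 0.745), and it was -0.16 under total counts and -0.01 with DESeq2. Within the output tissues the gene was 4.82-fold lower in liver than in kidney (log2 -2.27, SE 0.16, adjusted p 1.86e-08).

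Slc2a3, the high-affinity transporter of neurons, stood at 13.5, 15.8 and 13.7 FPKM in WT brain and at 5.75, 5.11 and 6.47 FPKM in spleen. In muscle, liver and kidney it was at 0.267 ± 0.0677, 0.178 ± 0.0687 and 0.153 ± 0.0290 FPKM, levels that overlapped between neighbours. Output tissues were lower by 4.14 log2 units (SE 0.18, adjusted p 3.37e-11). Brain exceeded spleen by 1.397 (SE 0.22, adjusted p 4.01e-05). The small difference of liver over kidney (0.21, SE 0.26, adjusted p 0.533) took the opposite sign under total counts (-0.76, adjusted p 0.0347).

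Slc2a4, the transporter that insulin moves to the surface of muscle and fat cells, was at 228, 224 and 220 FPKM in WT muscle and far lower elsewhere. Kidney held 8.76, 8.84 and 9.75 FPKM, spleen 6.42, 5.88 and 1.19 FPKM, liver 0.0950, 0.257 and 0.535 FPKM, and brain 0.286 ± 0.0186 FPKM. Kidney and spleen did not overlap, while liver and brain did. The output tissues were lower by 2.06 (SE 0.36, adjusted p 1.36e-04), and liver was 30.9-fold below kidney (log2 -4.95, SE 0.60, adjusted p 5.93e-06). Muscle fibre markers summed to 94.7 and 118 CPM in the kidney libraries of replicate 3, WT and heterozygous, and to 4.55 to 7.35 CPM in the other 4. Slc2a4 was at 9.75 and 10.4 FPKM in those 2 and at 8.32 to 8.84 FPKM in the others, and the part of muscle fibre in the kidney level was not tested. Liver Slc2a4 was also highest in replicate 3 of each genotype (0.535 and 0.483 FPKM), where markers of periportal hepatocytes were highest too (14971 and 14505 CPM, beside 7912 to 9711 CPM in the other 4), and the part of this in the spread was not tested.

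Added up, the 4 transporters came to 227.5 ± 4.03 FPKM in WT muscle, 78.1 ± 12.7 in liver, 41.6 ± 3.25 in kidney, 29.5 ± 3.65 in brain and 16.5 ± 2.12 in spleen (SD, n = 3). The order of these sums is given for TMM scaling and was not tested under total counts. TMM factors were 0.561 to 0.729 in WT liver and 1.24 to 1.31 in WT kidney. One gene dominated in muscle, where Slc2a4 gave 98.5% ± 0.0969 of the sum, and in liver, where Slc2a2 gave 95.1% ± 1.18. Brain was split between Slc2a1 (50.04% ± 2.06) and Slc2a3 (48.9% ± 1.99). Kidney combined Slc2a2 (40.8% ± 4.42), Slc2a1 (36.9% ± 3.58) and Slc2a4 (21.9% ± 0.883). Spleen held Slc2a1 (37.9% ± 7.42), Slc2a3 (35.7% ± 8.14) and Slc2a4 (26.2% ± 15.5), the last with the widest spread of any of these shares.

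**Figure D2:**
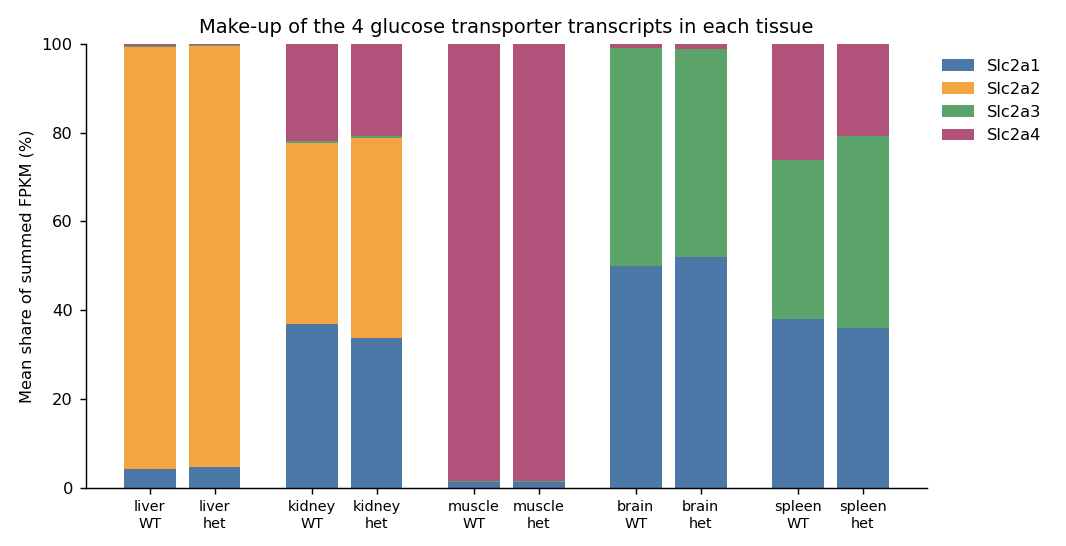
Mean share (%) of each of the 4 transporters in their summed FPKM, per tissue and genotype (n = 3 each; SD in the text for WT). Muscle is nearly all Slc2a4, liver nearly all Slc2a2, brain is divided between Slc2a1 and Slc2a3, and kidney and spleen are mixed.

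The pairwise contrasts placed these differences within each class of tissue. Between liver and kidney, 2 of the 9 genes were higher in liver (Pcx, Slc2a2) and 3 lower (Fbp2, Slc2a1, Slc2a4), beside 24.7% and 29.4% of all genes. Between brain and muscle, Slc2a1 and Slc2a3 were higher in brain and the other 7 lower (39.9% and 32.5% of all genes). The Slc2a2 call (log2 -2.75, edgeR adjusted p 0.0107) was lost without WT muscle replicate 2, the library highest in kidney tubule markers (-1.02, adjusted p 0.280), and under total counts (-1.49, adjusted p 0.150). The Pcx call was also lost under total counts (-0.15, adjusted p 0.686). Between brain and spleen, Fbp2, Pcx, Slc2a1 and Slc2a3 were higher in brain and Pck1 and Slc2a4 lower (42.8% and 37.0%). Between muscle and spleen, 6 were higher in muscle (Pck1, G6pc, Fbp1, Fbp2, Pcx, Slc2a4) and 2 lower (Slc2a1, Slc2a3), beside 37.2% and 38.1%. The WT muscle libraries held 12.9 to 96.4 CPM of proximal tubule markers, and the part of these in the contrasts with muscle was not tested. In the heterozygous libraries, G6pc and Fbp1 were lower in muscle than in spleen (log2 -4.30, adjusted p 0.00159, and -1.59, adjusted p 5.45e-04), opposite to WT. Under total counts the WT call of G6pc was lost (1.76, adjusted p 0.0620). Scaling by total counts moved the median log2 difference of all genes from -0.08 to -1.07 between liver and kidney, from 0.19 to 1.45 between brain and muscle and from 0 to -1.32 between muscle and spleen. The share of calls that were higher then went from 45.7% to 14.7%, from 55.1% to 79.9% and from 49.4% to 28.5%, so the size of a difference between tissues depends on the scaling. Between output and uptake tissues the median moved from -0.13 to -0.33, and the same 8 genes were called in the same directions.

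In the heterozygous libraries the contrast of output against uptake tissues called the same 8 genes in the same directions. The log2 differences were 10.62 (SE 0.27) for Pck1, 13.98 (SE 0.31) for G6pc, 12.23 (SE 0.22) for Fbp1 and 11.83 (SE 0.21) for Slc2a2. For Slc2a1 the difference was 0.12 (SE 0.07, edgeR adjusted p 0.175). The larger values for G6pc, Fbp1 and Slc2a2 than in WT went with their lower levels in heterozygous muscle, described further on.

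**Figure D3:**
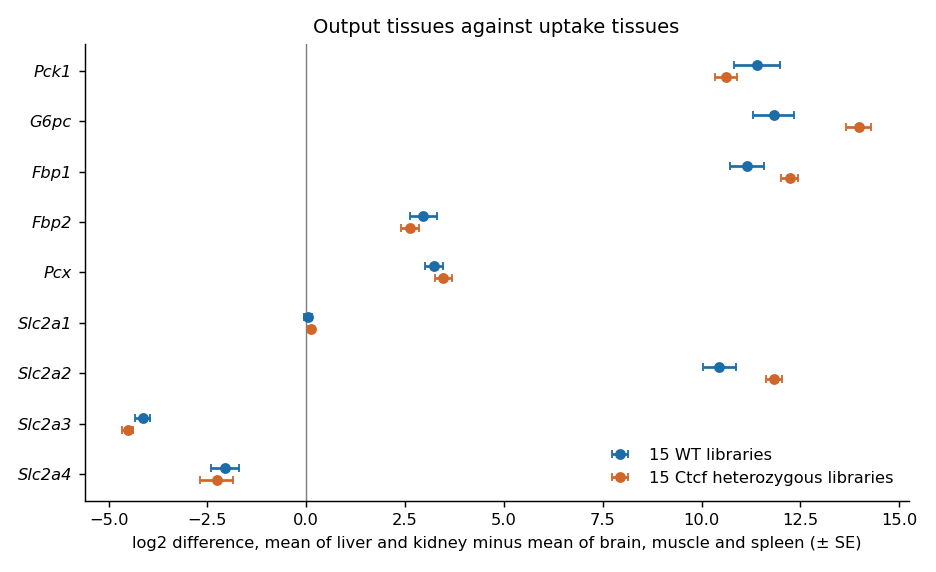
Log2 difference (± SE) of the mean of liver and kidney over the mean of brain, muscle and spleen for each gene, from the 15 WT libraries (blue) and the 15 heterozygous libraries (orange). Pck1, G6pc, Fbp1 and Slc2a2 lie beyond 10, Fbp2 and Pcx near 3, Slc2a1 at 0, and Slc2a3 and Slc2a4 below 0 in both genotypes.

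The wider pathway was compared between the WT output and uptake tissues, where 31.7% of all genes were called higher and 30.7% lower. Of 20 other genes of gluconeogenesis and glucose release, 14 were higher in output tissues and 3 lower. Those higher included the glycerol kinase Gk (log2 5.31, SE 0.18), the dicarboxylate carrier Slc25a10 (4.99, SE 0.13) and the serine dehydratase Sds (3.41, SE 0.28). Of 20 regulators, 13 were higher and 1 lower, with the nuclear receptor Hnf4a (12.14, SE 0.46), the glucagon receptor Gcgr (10.67, SE 0.29) and Nr0b2 (8.27, SE 0.28) among them. The median log2 difference was 1.31 over the first list and 1.396 over the regulators, against -0.13 over all genes.

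Among 10 other hexose transporters tested of 11 listed, 6 were higher and 3 lower, with a median of 1.08. The sodium-linked Slc5a1 (8.62, SE 0.41), the fructose transporter Slc2a5 (5.88, SE 0.29) and the urate transporter Slc2a9 (4.502, SE 0.16) were called higher. Slc5a2, the main sodium-linked glucose transporter of the proximal tubule, was at 72.7 ± 17.4 FPKM in WT kidney and 0.00596 ± 0.00521 FPKM in liver, and its output difference of 4.02 (SE 1.91) had an edgeR adjusted p of 0.0825. Of 6 genes of glucose phosphorylation, 3 were higher and 2 lower, beside 31.7% and 30.7% of all genes, with a median of 1.07. Gckr (6.73, SE 0.28) and Hkdc1 (1.84, SE 0.37) were higher, and the muscle hexokinase Hk2 was lower (-3.37, SE 0.22). Of 13 genes of GLUT4 storage and trafficking, 10 were lower in output tissues and 2 higher, with a median of -1.02. The lower ones were led by the transcription factors Mef2c (-5.80, SE 0.24) and Mef2d (-2.25, SE 0.14), the vesicle protein Vamp2 (-2.04, SE 0.11) and the Rab regulator Tbc1d4 (-1.51, SE 0.10).

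Across all 30 libraries, the genes whose log2 CPM followed each member most closely were taken by Pearson's r among 14847 genes. The libraries share tissue, and 5 tissues set most of each r, so the values are descriptive. The closest to G6pc was Fbp1 itself (r = 0.994), then Hgd, an enzyme of amino acid breakdown (r = 0.994). Fbp1 was close to Ttc36 and Acnat2 (r = 0.9965 and 0.9959), and Slc2a2 to Aadac, Cyp2d26 and Proc (r = 0.994 to 0.992). Pck1 was closest to Emilin1, Rbpms and Scrn2 (r = 0.984 to 0.980). Pcx was nearest to Ctnnd1, Ephx2 and Ctsl, and Fbp2 to Smtn, Lpl and Slc25a3 (highest r = 0.984 and 0.983). Slc2a1 was nearest to Crocc, March9 and Stk39, and Slc2a3 to Elmo1, Sh3bp1 and Hes5 (highest r = 0.986 and 0.991). Slc2a4 had the lowest best match, Vamp3 at r = 0.962, followed by Zmat5 and Trim16.

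Within an output tissue, Pck1 and G6pc did not keep a fixed proportion. The ratio of Pck1 to G6pc FPKM was 3.50003 ± 2.22 in WT liver and 6.70 ± 3.41 in WT kidney (SD, n = 3). Over the 6 liver libraries of both genotypes the log2 CPM of the 2 genes had Pearson's r = 0.555 (exact permutation p 0.311, adjusted over the 2 tissues 0.311) and Spearman's rho = 0.714 (exact permutation p 0.136, adjusted 0.242). Without WT replicates 2 and 3, the 2 farthest from the median of Pck1, r was 0.999 over 4 libraries. In kidney r was 0.540 (exact permutation p 0.250, adjusted 0.311) and rho 0.600 (exact permutation p 0.242, adjusted 0.242), and r was -0.81 without the 2 farthest libraries, so the kidney value rests on those 2. Neither relation passed its 2-sided test.

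The second comparison asks whether losing 1 copy of Ctcf changes these genes. In edgeR's test none of the 9 was called in any tissue, of 9 tested in liver, 9 in kidney, 8 in muscle, 8 in spleen and 5 in brain. Calls were rare among all genes, at 0.0193% for liver, 0.0211% for kidney, 0.0157% for brain, 0.0249% for muscle and 0.242% for spleen. At an unadjusted p under 0.05 stood 4 members in muscle, 1 in kidney, 1 in spleen and 0 in liver and brain. The share of all genes under that unadjusted threshold was 4.56% for liver, 6.44% for kidney, 2.96% for brain, 6.45% for muscle and 3.52% for spleen. DESeq2 called 2 members in muscle, G6pc and Fbp1, where it called 0.978% of the genes to which it gave an adjusted p. In the other tissues it called 0 members, beside 0.437% of genes for liver, 0.769% for kidney, 0.168% for brain and 0.850% for spleen. WT and heterozygous libraries were fully apart for 4 members in muscle, 2 in brain, 1 in kidney, 1 in spleen and 0 in liver. Among all genes tested the share without overlap was 8.99% for liver, 11.4% for kidney, 7.83% for brain, 12.2% for muscle and 6.64% for spleen.

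**Figure D4:**
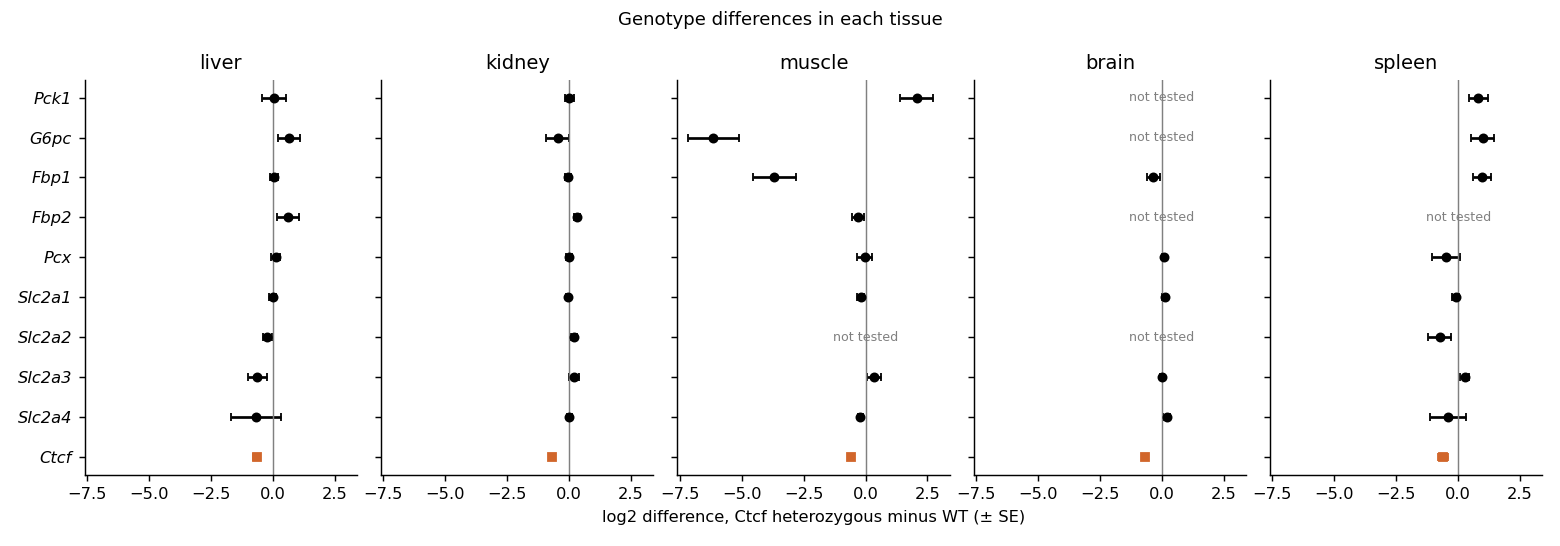
Log2 difference (± SE) of heterozygous over WT for each gene and tissue from the 6-library fits, with Ctcf as an orange square at the bottom. Pck1 above 0 and G6pc and Fbp1 below 0 in muscle lie farthest from 0; in spleen Pck1, G6pc and Fbp1 lie near 1 (0.81, 0.99 and 0.95), and no gene but Ctcf in brain passed the adjusted threshold.

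In liver the heterozygous and WT libraries overlapped for all 9 genes. Heterozygous Pck1 was at 634, 646 and 574 FPKM, all within the WT span of 227 to 1192 FPKM (log2 difference 0.05, SE 0.49, edgeR adjusted p 1). G6pc was at 344, 333 and 240 FPKM, of which 2 lay above the highest WT library (0.64, SE 0.45, adjusted p 1). Fbp1, Pcx and Slc2a1 differed by 0.05 (SE 0.16), 0.11 (SE 0.19) and -0.01 (SE 0.15), and Slc2a2 by -0.22 (SE 0.17). The SD of Pck1 was 38.93 FPKM in the heterozygous libraries and 516 FPKM in WT, which limits what the liver test of this gene could detect.

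In kidney all 9 genes could be tested. Heterozygous Pck1 was at 910, 981 and 620 FPKM (0.00, SE 0.19), and Fbp1 and Pcx differed by -0.04 (SE 0.11) and -0.01 (SE 0.12). Fbp2 was at 25.0, 20.6 and 27.6 FPKM, of which 2 exceeded the WT maximum of 21.8 FPKM (0.31, SE 0.12, unadjusted p 0.0308, edgeR adjusted p 0.692). The highest library of each genotype was replicate 3, which held the muscle fibre markers given above, and the difference was 0.39 without that WT library and 0.22 without that heterozygous library. Slc2a2 was at 20.1, 19.5 and 19.8 FPKM, just above the WT maximum of 19.002 FPKM and without overlap (0.21, SE 0.12, adjusted p 0.901). G6pc, at 128, 158 and 65.1 FPKM, overlapped WT (-0.47, SE 0.48), and its sign changed to 0.29 without WT replicate 2, the library at 294 FPKM.

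In brain only Fbp1, Pcx, Slc2a1, Slc2a3 and Slc2a4 had enough counts to test. For the main brain transporters no difference was detected. Slc2a1 was at 15.9, 18.3 and 16.2 FPKM in heterozygous libraries (0.11, SE 0.11) and Slc2a3 at 14.0, 16.7 and 14.8 FPKM (0.01, SE 0.08), both overlapping WT. Pcx at 18.9 to 19.7 FPKM lay above the WT maximum of 18.4 FPKM (0.07, SE 0.06, edgeR adjusted p 1). Slc2a4 at 0.327, 0.348 and 0.356 FPKM lay above the WT maximum of 0.304 FPKM (0.20, SE 0.14, adjusted p 1).

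Muscle held the largest genotype differences of the 9 genes, in transcripts that WT muscle has at low level. G6pc had 19, 66 and 18 counts in WT muscle (0.122, 0.422 and 0.129 FPKM) and 0, 0 and 1 in heterozygous muscle. The groups were apart, and the ratio of scaled counts was 95.9 with a 95% exact interval of 16.8 to 3826, which covers counting error only. Fbp1 was at 0.539, 2.64 and 0.347 FPKM in WT and at 0.0470, 0.0989 and 0.132 FPKM in heterozygous muscle, again without overlap. The log2 difference of Fbp1 was -3.68 (SE 0.86, unadjusted p 0.00270, edgeR adjusted p 0.365), and the unadjusted p of G6pc was 3.12e-04 (adjusted p 0.229). Over 11 alternatives the adjusted p ran from 8.27e-04 to 0.616 for G6pc and from 7.06e-05 to 0.811 for Fbp1, and 4 of the 11 called both genes.

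The same WT muscle libraries held transcripts of kidney proximal tubule. Its 5 markers (Slc34a1, Lrp2, Slc5a2, Slc22a6, Kap) summed to 13.8, 96.4 and 12.9 CPM in WT muscle and to 0.0160, 0 and 8.01 CPM in heterozygous muscle, and all 5 were detected in every WT library. Kap, an androgen-regulated protein of the tubule, was at 13.3, 104 and 12.1 FPKM in WT and at 0, 0 and 6.02 FPKM in heterozygous muscle. Slc34a1 overlapped between genotypes, at 0.777, 3.70 and 0.767 FPKM in WT and at 0, 0 and 0.984 FPKM in heterozygous muscle. Hepatocyte markers were at 25.0 CPM in WT replicate 1 and between 0.0801 and 3.29 CPM in the other 5 libraries. WT replicate 2, highest in tubule markers, was also highest in G6pc, in Fbp1 and in Slc2a2 (0.142 FPKM, with 0.0351 and 0 FPKM in the other WT libraries), and heterozygous replicate 3, the one with tubule markers, had the highest heterozygous G6pc, Fbp1 and Slc2a2. The part of these transcripts in the result was not tested.

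Pck1 in muscle went the other way, at 2.41, 7.95 and 0.922 FPKM in WT and at 21.6, 12.2 and 13.9 FPKM in heterozygous libraries. All 3 heterozygous libraries were higher, by 2.06 on the log2 scale (SE 0.66, unadjusted p 0.0145, edgeR adjusted p 0.559). Pck1 is also a gene of fat cells, where it serves glyceroneogenesis. The adipocyte markers Adipoq (2.70 to 9.26 FPKM in WT, 15.1 to 42.9 FPKM in heterozygous), Plin1 (0.471 to 1.06 and 2.44 to 5.79 FPKM) and Cidec (1.11 to 5.34 and 8.89 to 24.9 FPKM) were higher in all 3 heterozygous libraries too. The other 2 markers of the list overlapped between genotypes: Lep was at 0.155 to 0.292 FPKM in WT and 0.245 to 0.662 FPKM in heterozygous muscle, and Pnpla2, a lipase that muscle expresses, at 90.9 to 168 and 85.4 to 134 FPKM, with a lower heterozygous range. The whole list of 5 summed to 283 to 537 CPM in WT and 330 to 538 CPM in heterozygous muscle. WT replicate 2, the library highest in kidney tubule markers, was also the highest WT library in Pck1 (7.95 FPKM). Heterozygous replicate 3, the one with tubule markers, was at 13.9 FPKM, below replicate 1 at 21.6 FPKM. The parts of fat tissue and of kidney tubule in the Pck1 values were not tested.

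The abundant glucose genes of muscle gave smaller differences. Slc2a4 was at 189, 203 and 197 FPKM in heterozygous muscle, below all 3 WT libraries at 220 to 228 FPKM, a 1.16-fold difference (log2 -0.21, SE 0.09, unadjusted p 0.0456, edgeR adjusted p 0.760; 0.596 to 1 over 11 alternatives). Fbp2 at 123, 67.3 and 91.6 FPKM overlapped WT (-0.32, SE 0.24), as did Slc2a1 (-0.20, SE 0.13) and Pcx (-0.04, SE 0.31). Slc2a2 had too few counts in muscle to be tested.

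**Figure D5:**
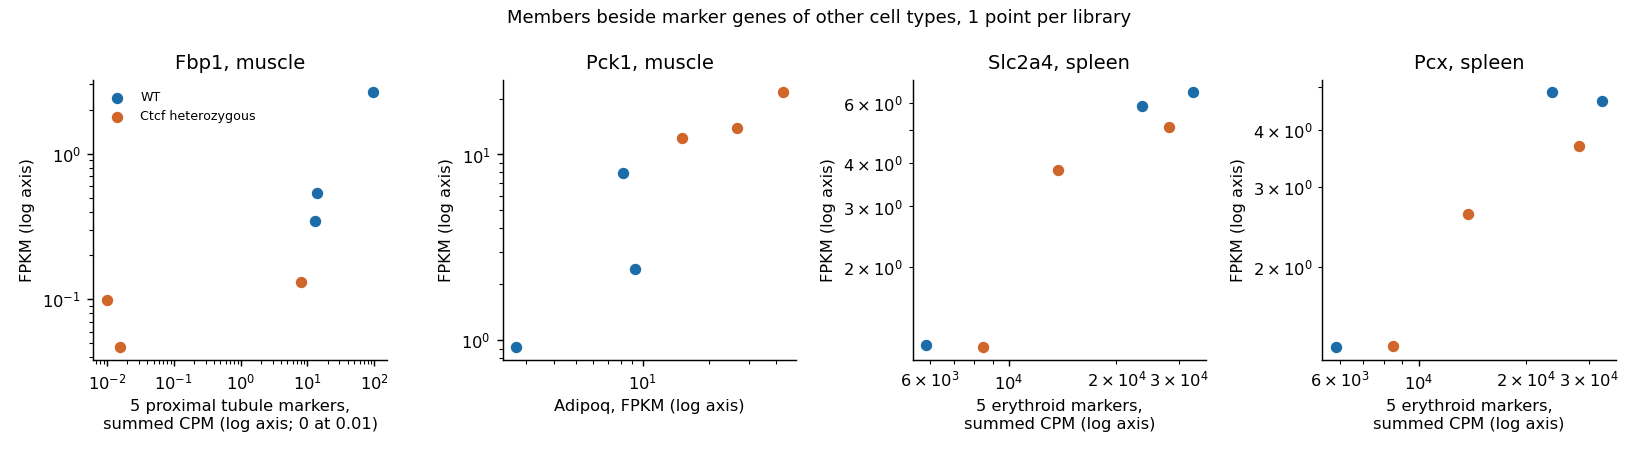
Levels (FPKM, log axes) of Fbp1 and Pck1 in muscle and of Slc2a4 and Pcx in spleen against marker genes of other cell types in the same library (summed CPM, or FPKM for Adipoq), 1 point per library, WT in blue and heterozygous in orange. The library with the highest marker value has the highest Fbp1, Pck1 and Slc2a4 in the first 3 panels, and the 2 spleens lowest in erythroid markers are lowest in Slc2a4 and Pcx. The Pck1 panel shows Adipoq alone of 5 adipocyte markers. Their sum overlapped between genotypes in muscle (283 to 537 CPM in WT, 330 to 538 CPM in heterozygous).

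In spleen Pck1, G6pc and Fbp1 were all under 1 FPKM in both genotypes. Fbp1 was at 0.153, 0.152 and 0.124 FPKM in WT and at 0.177, 0.287 and 0.362 FPKM in heterozygous spleen, without overlap (log2 0.95, SE 0.37, unadjusted p 0.0363, edgeR adjusted p 1). Pck1 (0.81, SE 0.38) and G6pc (0.99, SE 0.47) overlapped between genotypes. Here the tubule markers were in the heterozygous libraries, at 6.85 to 14.1 CPM beside 0.204 to 0.421 CPM in WT, with Kap called higher (edgeR adjusted p 0.0237) and at 0 in all WT libraries. Hepatocyte markers were in the WT libraries, at 21.7 to 27.4 CPM beside 0.0279 to 0.134 CPM, with Ahsg at 0 in all heterozygous libraries. Alb (adjusted p 0.0111), Ahsg (0.0174), Ttr (0.0174), Cps1 (0.0233), Cyp2e1 (0.0317), Apoa1 (0.0388) and Rgn (0.0489), all liver transcripts, were called lower. Cps1 comes from a list of periportal hepatocyte markers, and Cyp2e1 and Rgn from a pericentral list. Both lists overlapped between genotypes as sums. The periportal sum was 39.2 to 50.9 CPM in WT and 27.2 to 41.5 CPM in heterozygous spleen. The pericentral sum was 176 to 269 CPM in WT and 173 to 287 CPM in heterozygous spleen. The part of either tissue in the Fbp1 difference was not tested.

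Slc2a4 and Pcx varied widely between spleens of the same genotype, and no genotype difference was detected. Slc2a4 was at 6.42, 5.88 and 1.19 FPKM in WT and at 1.18, 5.11 and 3.83 FPKM in heterozygous libraries (-0.42, SE 0.73, edgeR adjusted p 1), and Pcx at 4.66, 4.85 and 1.33 and at 1.33, 3.70 and 2.61 FPKM (-0.50, SE 0.56). Summed markers of red cell precursors (5 genes, with Alas2, Slc4a1, Klf1 and Hbb-bs among them) ran in nearly the same order, at 32745, 23589 and 5853 CPM in WT and 8462, 28189 and 13712 CPM in heterozygous spleen. WT replicate 3 and heterozygous replicate 1 were lowest in all 3 measures, and the part of red cell precursors in this spread was not tested. The main spleen transporters Slc2a1 (-0.10, SE 0.14) and Slc2a3 (0.26, SE 0.17) overlapped between genotypes.

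Fitted over all 5 tissues, edgeR called a shared genotype effect for 0 of the 9 (0.194% of all genes were called, and 1 of the 9, Pck1, had an unadjusted p under 0.05, as did 5.91% of all genes). The shared log2 difference was 0.65 for Pck1 (SE 0.30, unadjusted p 0.0373, edgeR adjusted p 0.789), -0.27 for G6pc (SE 0.37) and -0.03 for Slc2a1 (SE 0.06). DESeq2 called none of the 8 it tested, beside 0.638% of all genes. These fits of a shared effect count libraries as separate. Their p-values are too small if the same mouse gave several tissues and the mouse matters. The genotype effect differed between tissues for 1 of the 9, Fbp1, with an edgeR adjusted p of 0.00836 in the interaction test, beside 0.758% of all genes. That call was lost without muscle (adjusted p 0.404), without spleen (0.0637) and without both (1), alternatives added after seeing the marker genes. DESeq2 called 3 members here, Fbp1, G6pc (adjusted p 1.61e-06) and Slc2a2 (0.0239), beside 3.92% of all genes.

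Of the 70 listed genes of glucose release, transport, phosphorylation, regulation and GLUT4 trafficking, edgeR called none in brain (62 tested), kidney (67), liver (65), muscle (61) or spleen (57). An unadjusted p under 0.05 was found for 12 genes in muscle (6.45% of all genes), 4 in kidney (6.44%), 2 in brain (2.96%), 2 in spleen (3.52%) and 2 in liver (4.56%). DESeq2 called 3 in muscle, among them Cebpa and Slc5a2, which are named here because it called them (0.978% of all genes with an adjusted p), and 0 in each of the other tissues. Slc5a2 is also 1 of the 5 proximal tubule markers. It was at 0.0698, 0.394 and 0.0659 FPKM in WT muscle and at 0.00553, 0 and 0.0357 FPKM in heterozygous muscle. The part of kidney tubule in its call was not tested.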

How the data were processed

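Gene counts were analysed as the authors deposited them, in 1 table per tissue. Per the file headers, featureCounts 1.5.0-p3 counted fragments over Ensembl release 86 exons of GRCm38 without strand, leaving out fragments that mapped to several places or overlapped several genes. The submitters' processing notes also name STAR, FastQC and DESeq2, without versions. Symbols matched 48349 of 48709 genes.

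Each tissue's 6 libraries, the 15 WT libraries and all 30 libraries were fitted with edgeR 4.0.16 in R 4.3.3 (filterByExpr, TMM, quasi-likelihood F-test, Benjamini-Hochberg over all genes tested, threshold 0.05), checked on simulated data. Levels are FPKM from the deposited exonic lengths. A level at or under 3 counts is at the floor, for counting error only, since no molecular identifiers are stated. Replicate pairs differed by 15.4 to 640 times sampling noise (chi-square per degree of freedom), so none was merged. Correlations over 6 libraries used exact permutation tests.

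Same-numbered WT and heterozygous libraries deviated together, with r of at least 0.1 in every pair, in brain (r = 0.207, 0.383, 0.537) and kidney (0.209, 0.190, 0.212). All pairs were also positive in liver (0.0512, 0.118, 0.277) and muscle (0.0829, 0.183, 0.271). Spleen had r of -0.472, -0.227 and 0.475. Alternatives were DESeq2 1.42.0, total counts, a filter of at least 1 count, all 30 libraries, the replicate block and libraries or tissues left out. The members and gene lists were chosen with earlier results of these data known. The text names all 9 members and Ctcf, list genes called by genotype, otherwise up to 4 per list with the largest difference between output and uptake tissues at 1 CPM or more, and 3 genes per member by likeness. Some genes that this rule selects are not reported here.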

Additional observations from a re-analysis of the deposited data

Results flagged for a closer look

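Fbp1 is listed because its genotype effect differed between tissues in the interaction test (edgeR adjusted p 0.00836), and because all 3 heterozygous libraries lay above WT in spleen (log2 difference 0.95) and below WT in muscle (-3.68). The interaction covers all 5 tissues together, and the pair of muscle and spleen was not tested alone. The summed level of proximal tubule markers had the same opposite order in these 2 tissues. WT was above heterozygous in muscle, and heterozygous above WT in spleen. Of the single markers, Slc34a1 overlapped between genotypes in muscle and Slc5a2 in spleen. The part of tubule transcripts in the result was not tested.

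Slc2a4 is listed because all 3 heterozygous libraries lay above WT in brain (log2 difference 0.20) and below WT in muscle (-0.21). The difference between these 2 tissues was not tested alone, and the interaction over all 5 tissues had an adjusted p of 1. Mean WT levels were 0.286 FPKM in brain and 224 FPKM in muscle.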

How the results depend on the processing

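The contrast of output against uptake tissues called the same 8 members in all 20 alternatives. Between liver and kidney, 5 members were called, and 8 in the heterozygous libraries. There Slc2a3 reversed to -0.56, and to -0.76 under total counts. Between the uptake tissues the heterozygous libraries reversed G6pc, Fbp1 and Slc2a2 in brain against muscle (1.69, 0.37 and 1.21) and in muscle against spleen (-4.30, -1.59 and -1.50), and Fbp1 in brain against spleen (-1.21). The cause was not tested.

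The counts of genes called by genotype depended on the method. In brain, kidney, liver, muscle and spleen, in that order, DESeq2 called 29, 157, 70, 182 and 192, every gene with at least 1 count gave 6, 45, 16, 66 and 74, the fit of all 30 libraries 1, 13, 37, 229 and 250, and a block for the replicate number 22, 21, 7, 118 and 0. Dropping 1 library gave 0 to 1, 3 to 56, 1 to 17, 1 to 2 and 0 to 29. The highest of these came without heterozygous replicate 3 in kidney and liver and without heterozygous replicate 2 in spleen, and spleen had 0 calls without any single WT library (515 to 678 genes with an unadjusted p under 0.05). Members called in muscle rose from 0 to 2 (G6pc, Fbp1) under DESeq2, at least 1 count, all 30 libraries and the block, and the block changed no other genotype call of a member. The interaction called 736 genes with DESeq2, 37 without spleen and 13 without muscle and spleen. Members called there were 1, then 2 at 1 count, 3 with DESeq2 and 0 without muscle, spleen or both. The shared effect called 128 genes with DESeq2 and 23, 16, 15 and 18 without brain, kidney, liver or muscle.

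Depth limited G6pc, Slc2a2 and Fbp2 in brain and spleen, Pck1 in brain, and G6pc and Slc2a2 in muscle, where libraries held few counts. With 3 against 3 libraries an exact permutation test of 1 gene cannot go below 0.1.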
